A study of Mus musculus with 9 samples.

Results

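The immunity-related GTPases, a family of proteins that T cells and many other mouse cells make in response to interferon, were followed in nascent RNA of mouse CD8+ T cells, together with a long non-coding RNA gene that lies between family members on chromosome 18. The 8 genes, listed by symbol, were Irgm1, Irgm2, Igtp, Iigp1, Tgtp1, Tgtp2, Gm4951 and AC132320.1. They were 8 of 37022 annotated genes in the tables. All 8 passed the filter on low gene-body signal, as did 15942 genes in all, and 7 passed it for the pause region, as did 7678 genes. The list was made with values of these libraries known: AC132320.1 was selected on its gene-body fall between acute and chronic libraries. The other 7 genes were listed by name as members of the family, with that contrast also known. Contrasts with MEK-inhibited libraries use the same chronic or acute libraries, so the p-values of these 7 genes are not free of that choice. The contrast of chronic with acute libraries is described below without a test for any of the 8 genes.

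Immunity-related GTPases are induced by interferon-gamma through the JAK kinases and the transcription factor IRF1, and are best known for destroying the vacuoles in which parasites and bacteria live inside a cell. The effector members, which include the products of Iigp1 (Irga6), Tgtp1 and Tgtp2 (Irgb6), bind GTP and load onto such vacuoles. The regulator members, the products of Irgm1, Irgm2 and Igtp (Irgm3), sit on the cell's own membranes and keep the effectors inactive there. In T cells, Irgm1 is also known for its part in survival of the cells under interferon-gamma.

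The study asked how newly made RNA of CD8+ T cells, which kill infected and malignant cells, differs under stimulation that leads toward exhaustion. The libraries formed 3 groups of 3, labelled Acute, Chronic and ChronicMEKi, which are acutely stimulated cells, chronically stimulated cells, and chronically stimulated cells in which MEK, the kinase that activates ERK, was inhibited. Live cells of every group received 0.2 mM 5-ethynyl uridine for 30 minutes, and RNA that had taken up this uridine analogue was captured and sequenced. The labels name no strain, genotype, age, length or manner of stimulation, or inhibitor, and do not say whether replicates came from separate animals or cultures, so the p-values measure only the spread between these samples, which may be technical.

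Values are the authors' scaled signal per transcript, rescaled here so that a trimmed mean of genes is level across libraries. The signal is not a read count, and the depth in reads is unknown. Deposited gene-body signal, over 1 row per gene, summed to between 48601757 and 52216192 per library, and pause-region signal to between 4886503 and 8489288. All 7 markers of CD8+ T cells passed the filter. Cd8a was lower in chronic (841 to 1184) than in acute (3694 to 4388) libraries, at -2.07 on the log2 scale. Cd8b1, Cd3e, Cd2 and Trac were lower by less, at -0.60, -0.50, -0.38 and -0.43. Cd3d and Cd3g were not called, at -0.04 and 0.09 (limma adjusted p 0.856 and 0.598). A list of 17 markers of B cells, myeloid cells, NK cells, dendritic cells and red cells summed to between 950 and 1046 in acute, 700 and 772 in chronic and 584 and 884 in MEK-inhibited libraries. Cd4 ranged from 388 to 501, from 145 to 348 and from 102 to 143 in the same order. The part of other cells in the results below was not tested. In bulk samples, fewer cells of a type and less RNA per cell cannot be told apart. The inhibitor's label was checked on Dusp6, a phosphatase gene under MEK control, with a scaled signal of 2405, 2341 and 2519 in chronic and 213, 210 and 195 in MEK-inhibited libraries.

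The stretches before the start of the chromosome 11 members are shown because they carry the binding motifs of the interferon pathway that induces this family, and 4 of the 5 carry them in the same arrangement. Each is the 250 bases before the start given by RefSeq (build GRCm38.p6), from 5′ to 3′ on the gene's strand. Capitals mark 2 motifs searched on both strands. These are the gamma-activated site TTCNNNGAA and the core of the interferon-stimulated response element, a pair of GAAA repeats 2 bases apart (TTTC on the other strand), which is bound by the IRF factors. The windows lie at chr11:48871421-48871670 (Irgm1, minus strand), chr11:58214727-58214976 (Irgm2, plus strand), chr11:58199306-58199555 (Igtp, plus strand), chr11:48992247-48992496 (Tgtp1, minus strand) and chr11:49064213-49064462 (Tgtp2, minus strand).
Irgm1: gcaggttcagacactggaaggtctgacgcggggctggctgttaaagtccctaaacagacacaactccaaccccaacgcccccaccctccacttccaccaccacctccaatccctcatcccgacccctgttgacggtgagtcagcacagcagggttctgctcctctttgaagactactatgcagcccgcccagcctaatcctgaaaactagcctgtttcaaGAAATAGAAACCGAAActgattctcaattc
Irgm2: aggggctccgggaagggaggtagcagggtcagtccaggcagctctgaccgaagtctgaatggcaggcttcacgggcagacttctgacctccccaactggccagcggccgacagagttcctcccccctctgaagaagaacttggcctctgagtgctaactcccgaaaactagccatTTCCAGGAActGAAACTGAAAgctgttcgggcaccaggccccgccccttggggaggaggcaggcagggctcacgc
Igtp: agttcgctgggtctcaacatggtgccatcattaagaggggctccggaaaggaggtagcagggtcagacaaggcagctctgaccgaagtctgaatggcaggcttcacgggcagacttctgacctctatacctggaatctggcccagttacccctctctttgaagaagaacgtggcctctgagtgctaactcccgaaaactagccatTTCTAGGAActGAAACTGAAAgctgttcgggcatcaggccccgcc
Tgtp1: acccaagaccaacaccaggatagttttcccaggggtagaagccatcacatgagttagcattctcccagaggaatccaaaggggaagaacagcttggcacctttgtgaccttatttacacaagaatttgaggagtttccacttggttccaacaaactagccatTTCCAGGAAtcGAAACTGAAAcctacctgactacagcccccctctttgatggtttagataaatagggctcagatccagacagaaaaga
Tgtp2: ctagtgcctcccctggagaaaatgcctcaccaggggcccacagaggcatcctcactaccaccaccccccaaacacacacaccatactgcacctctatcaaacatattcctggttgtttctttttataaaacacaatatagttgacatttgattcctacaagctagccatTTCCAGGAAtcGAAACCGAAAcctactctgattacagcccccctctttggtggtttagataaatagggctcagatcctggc

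Igtp, Irgm2, Tgtp1 and Tgtp2 each held a gamma-activated site, then 2 bases, then the response element core. In Igtp the pair ran from base -45 to base -25, counted back from the start. In Irgm2 it ran from -75 to -55, in Tgtp1 from -88 to -68 and in Tgtp2 from -81 to -61. Irgm1 held no gamma-activated site in these letters and 2 response element cores, at -30 to -21 and at -24 to -15, which overlap by 4 bases. Of 32851 promoter windows of the same length, 2.98% held the response element core, 7.02% the gamma-activated site and 0.332% both. The whole composite, in that order and spacing on either strand, was found in 5 windows (0.0152%), which belonged to Igtp, Irgm2, Tgtp1, Tgtp2 and Gm12185, a further family locus beside Tgtp1. The composite has the order and spacing seen in the 4 windows printed above, so their own place among the matches was fixed in advance. The windows of Igtp and Irgm2 share long runs of letters, as do those of Tgtp1 and Tgtp2, so the 4 are not separate cases. These matches are a description of letters, not of bound factors. Of the further family loci taken up below, Gm12250 held 2 response element cores and 1 gamma-activated site in its window, while 9930111J21Rik1, 9930111J21Rik2, Ifi47, Gm5431 and Irgq held 0 of either. Windows for Iigp1, Gm4951 and AC132320.1 are not shown, and nothing is said here of the motifs they hold or lack.

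The regulator Igtp had the highest gene-body signal per kb of the 8 genes in each group. Igtp lies on chromosome 11 (58199556 to 58207591, plus strand, build GRCm38). Its scaled gene-body signal was 15705, 15680 and 15762 in acute, 4958, 5901 and 6325 in chronic, and 16787, 16062 and 16445 in MEK-inhibited libraries. The chronic libraries lay far below all others, and the MEK-inhibited libraries lay just above the acute ones. With MEK inhibition Igtp rose 2.88-fold over chronic libraries (log2 fold change 1.53 with an SE of 0.09, limma adjusted p 1.20e-09). Against acute libraries the difference was 0.06 (95% interval -0.13 to 0.25, adjusted p 0.661). Per kb of its row, the mean signal was 1956 in acute, 713 in chronic and 2045 in MEK-inhibited libraries.

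Irgm2, the neighbouring regulator gene on the same strand (58199618 to 58222782), had 20928, 21521 and 22351 in acute, 6777, 8250 and 9105 in chronic, and 22530, 21355 and 21961 in MEK-inhibited libraries. Its row, the one with the largest signal, starts 62 bases after the start of Igtp and runs over all the rest of it, so that Igtp made up 72.8% ± 2.26 (SD, n = 3) of it in acute, 71.4% ± 1.85 in chronic and 74.9% ± 0.352 in MEK-inhibited libraries. The row of Irgm2 that starts after Igtp ends, beginning beside the promoter window printed above, is therefore the better measure of the gene. It had 3955, 4327 and 5056 in acute, 1338, 1772 and 2002 in chronic, and 4036, 3831 and 3775 in MEK-inhibited libraries. No chronic library reached the level of any other. On that row Irgm2 rose by 1.20 on the log2 scale with MEK inhibition (SE 0.13, limma adjusted p 2.31e-06), and against acute libraries it stood at -0.19 (95% interval -0.46 to 0.09, adjusted p 0.325). The longer row gave 1.46 and 0.02.

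Irgm1, the third regulator, lies apart from the other two on chromosome 11 (48861968 to 48871683, minus strand). Its signal was 4495, 4474 and 4606 in acute, 1756, 1945 and 2405 in chronic, and 4238, 4229 and 4763 in MEK-inhibited libraries. The acute and MEK-inhibited libraries overlapped, and both lay above the chronic ones. Irgm1 rose 2.18-fold with MEK inhibition (log2 fold change 1.12 with an SE of 0.11, limma adjusted p 6.35e-07), and differed from acute libraries by -0.04 (95% interval -0.27 to 0.19, adjusted p 0.838).

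The level of the 3 regulators against acute libraries depended on the scaling. Scaled to library totals, which moved the median of all genes by -0.38 in that comparison, Irgm1, Irgm2 and Igtp were called lower, at -0.42, -0.36 and -0.32 (limma adjusted p 0.0109, 0.0236 and 0.0407). On the deposited scale Irgm1 and Irgm2 were called lower, at -0.38 and -0.32. Changes are therefore relative to that of a typical gene, and the rise of the regulators over chronic libraries held under each scaling.

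Iigp1, whose product is the effector Irga6, had the largest rise with MEK inhibition of the 3 effectors. It lies on chromosome 18 (60376027 to 60392634, plus strand). Its signal was 8729, 8019 and 9266 in acute, 1265, 1218 and 1139 in chronic, and 6306, 6616 and 6424 in MEK-inhibited libraries. The 3 groups did not overlap. Iigp1 rose 5.33-fold with MEK inhibition (log2 fold change 2.41 with an SE of 0.09, limma adjusted p 5.23e-12), and remained lower than in acute libraries, at 74.5% of their level (log2 fold change -0.42 with an SE of 0.09, adjusted p 0.00179). Chronic libraries held 14.0% of the acute level.

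Tgtp1 (48985327 to 48994172) and Tgtp2 (49057194 to 49064206), on the minus strand of chromosome 11, encode near-identical effectors. Of the 100-base stretches of the Tgtp1 transcript, 80% also occur in Tgtp2, and the authors' counting could split or share such reads, so the separate values are uncertain. Tgtp1 had 7442, 6073 and 7304 in acute, 1944, 2270 and 2676 in chronic, and 4570, 4516 and 5112 in MEK-inhibited libraries. Tgtp2 had 5074, 4455 and 4915, then 1485, 1745 and 1973, then 3260, 3202 and 3776, in the same order. For both genes every MEK-inhibited library lay between the chronic and the acute ones. Tgtp1 rose by 1.05 (SE 0.12, limma adjusted p 2.81e-06) and Tgtp2 by 0.98 (SE 0.11, adjusted p 4.67e-06) with MEK inhibition. Against acute libraries they were at 68.4% and 70.8%, with log2 fold changes of -0.55 and -0.50 (adjusted p 0.00170 and 0.00297).

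Gm4951, a gene of the same family on chromosome 18 (60212080 to 60247820, plus strand), had 5718, 5040 and 5712 in acute and 329, 455 and 398 in chronic libraries. In MEK-inhibited libraries it had 2637, 2314 and 2288. These values lay well above all chronic libraries and well below all acute ones. The rise with MEK inhibition was 6.10-fold (log2 fold change 2.61 with an SE of 0.13, limma adjusted p 1.35e-10), and Gm4951 stood at 44.0% of the acute level (log2 fold change -1.18 with an SE of 0.13, adjusted p 1.40e-06).

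AC132320.1, annotated as a long intergenic non-coding RNA gene, spans 72.7 kb of chromosome 18 (60283520 to 60356179, minus strand) between Gm4951 and Iigp1. Its signal was 2827, 2762 and 2781 in acute, 45.6, 56.3 and 62.5 in chronic, and 659, 657 and 458 in MEK-inhibited libraries. The chronic libraries held little signal, and the MEK-inhibited ones stood between the groups without overlap. Its signal was 9.90-fold higher in MEK-inhibited than in chronic libraries (log2 fold change 3.31 with an SE of 0.20) and 4.75-fold below the acute level (-2.25 with an SE of 0.20). AC132320.1 was chosen for its fall from acute to chronic libraries, and both of these contrasts use one of those groups, so its values are a description and no p is given. Chronic libraries held 2.12% of the acute level.

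F830016B08Rik, a family gene on the opposite strand, lies wholly inside AC132320.1. The tables do not separate strands: among 243 pairs of a gene with an average signal of 500 or more nested in another on the opposite strand, 0 had an outer value more than 1% below the inner one in any library. The signal of F830016B08Rik made up 11.9% ± 1.35 (SD, n = 3) of that of AC132320.1 in acute, 19.2% ± 8.96 in chronic and 14.1% ± 3.85 in MEK-inhibited libraries. With it subtracted, AC132320.1 had 2493, 2395 and 2486 in acute, 35.3, 41.6 and 56.8 in chronic, and 558, 592 and 379 in MEK-inhibited libraries. The log2 fold change with MEK inhibition was then 3.37 (SE 0.23), and that against acute libraries -2.28. Per kb of its row, F830016B08Rik had a mean signal of 34.5 in acute, 1.06 in chronic and 8.43 in MEK-inhibited libraries, beside 38.4, 0.754 and 8.13 for AC132320.1, so the signal of either cannot be separated from that of the other.

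**Figure D1:**
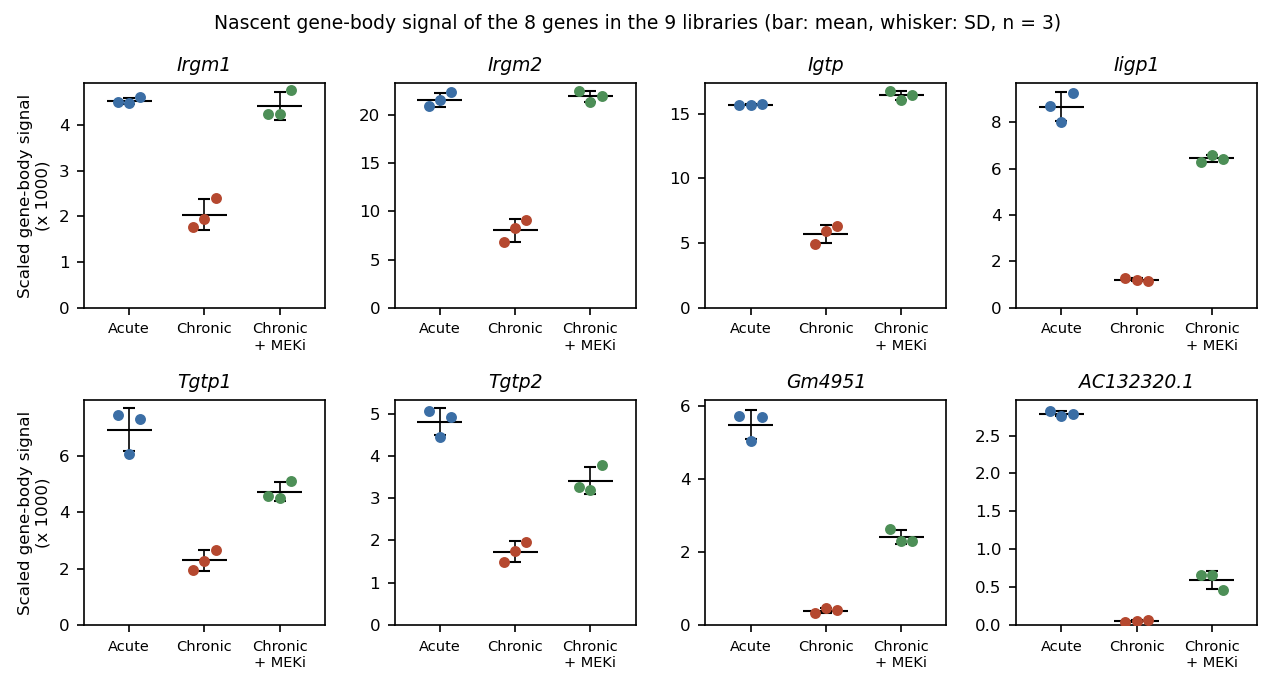
Scaled gene-body signal (linear axis from 0, in units of 1000) of the 8 genes, with 1 point per library in the acute, chronic and chronic MEK-inhibited groups, the mean as a bar and the SD as whiskers (n = 3). Every chronic library lies below every other library in all 8 panels, and the MEK-inhibited points come close to the acute level for Irgm1, Irgm2 and Igtp but stay 4.75-fold below it for AC132320.1.

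AC132320.1 was chosen on 2 of the groups compared, so its values are a description and its calls are not counted here. Each of the other 7 genes was called higher with MEK inhibition than in chronic libraries, where 9.93% of all 15942 genes were. Over all 8 genes the log2 fold changes ran from 0.98 to 3.31. Their median was 1.49, beside 0.04 over all genes. It was 1.37 with the row of Irgm2 free of Igtp and with F830016B08Rik subtracted from AC132320.1. Overlaps of Tgtp1, Tgtp2 and Gm4951 with other genes were left in. Without AC132320.1 the medians were 1.46 on the main rows and 1.20 with the other row of Irgm2. Each of the 7 stayed called in all 21 alternative analyses of the gene body. Every MEK-inhibited library lay above every chronic library for each of the 7, which held for 17.8% of all genes. Against acute libraries 4 of the 7 were called lower, where 11.5% of all genes were. In these 4 every MEK-inhibited library lay below every acute one, which held for 19.6% of all genes. In that comparison the 3 regulators were not called. Under library totals all 7 were called lower, where 4965 of 15942 genes were. Whether the regulators differ from the other members in this respect was not tested.

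Between chronic and acute libraries the 8 log2 fold changes ran from -5.56 for AC132320.1 to -1.16 for Irgm1, with a median of -1.54 beside -0.02 over all genes. Every chronic library lay below every acute one for all 8. AC132320.1 was selected on this contrast and the other genes were listed with it known, so this order is a description. Of all genes, 21.9% had the same order and 15.9% were called lower in that comparison. These shares are given for scale and are not a test of the 8 genes. The contrast with MEK inhibition uses the same chronic libraries, so both sets of values are given side by side and are not independent. Over the 9 libraries, the 28 pairwise Pearson correlations of log2 signal among the genes lay between 0.896 and 0.999, a description of points that share libraries and scaling. The 2 pairs at 0.999 were Irgm2 with Igtp, whose rows share signal, and Tgtp1 with Tgtp2, which share sequence. On the row of Irgm2 free of Igtp that pair was at 0.973, and the 27 pairs other than Tgtp1 with Tgtp2 then lay between 0.896 and 0.990.

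**Figure D2:**
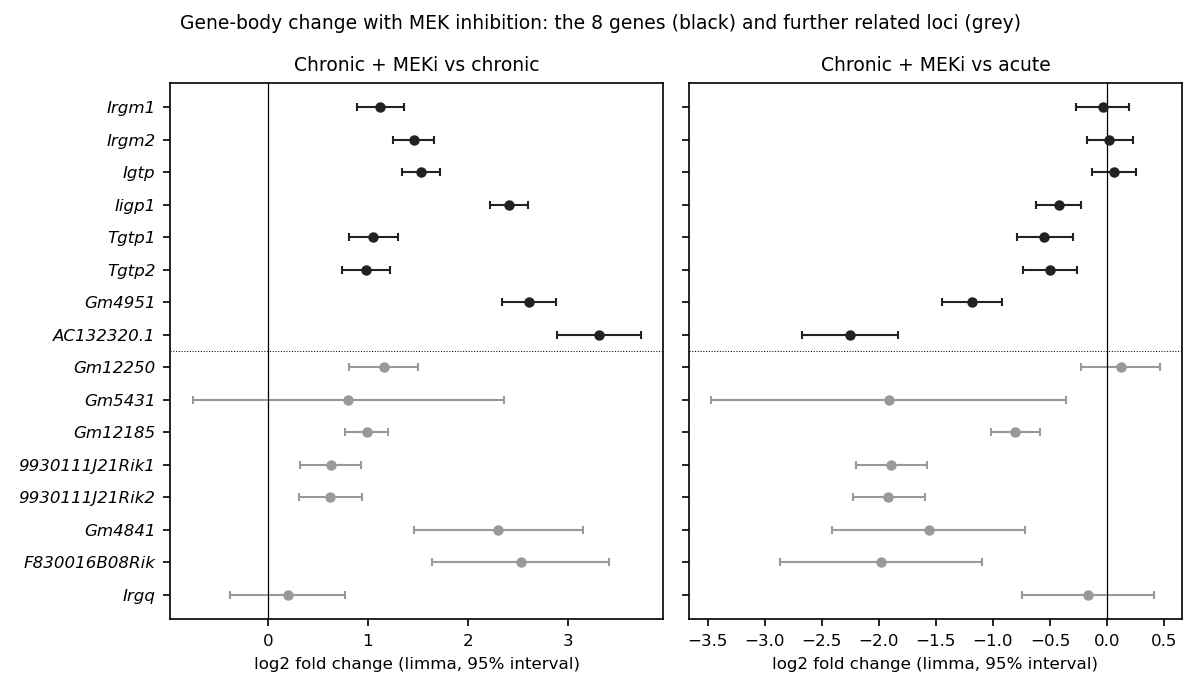
Log2 fold change of gene-body signal (points, with limma 95% intervals) for chronic MEK-inhibited against chronic libraries (left) and against acute libraries (right), for the 8 genes in black and 8 further loci of the family in grey. All black points lie right of 0 on the left, from 0.98 to 3.31, and on the right the intervals of Irgm1, Irgm2 and Igtp include 0.

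Signal near the transcription start moved with that of the gene body for most of the genes. In the pause-region table, 6 of the 7 genes tested were higher with MEK inhibition, where 1.56% of genes were called higher. Iigp1 had 40.1, 9.43 and 12.2 in chronic and 199, 188 and 150 in MEK-inhibited libraries (log2 fold change 3.03 with an SE of 0.39, limma adjusted p 8.17e-06). Igtp had 392, 599 and 485 against 1218, 1314 and 1245 (log2 fold change 1.37 with an SE of 0.19, adjusted p 1.80e-05). Tgtp1 and Gm4951 rose by 1.51 and 2.29 (adjusted p 3.90e-05 and 6.39e-05). Irgm2 was at 1.40, but the row used for it starts with Igtp, so that signal enters the count of 6 a second time. At the start of Irgm2 that lies after Igtp, pause-region signal was 396, 416 and 438 in acute libraries. It was 149, 200 and 218 in chronic and 347, 447 and 303 in MEK-inhibited libraries, a difference that was not tested. Tgtp2 rose by 1.00 (adjusted p 0.0112), and this call was lost without chronic replicate 1 (0.86, adjusted p 0.0652) or MEK-inhibited replicate 3 (0.82, adjusted p 0.123).

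Irgm1 was not called in the pause region, at -0.23 (95% interval -1.08 to 0.62, limma adjusted p 0.867). Its row with the largest gene-body signal begins at a start with little signal, with means of 125 ± 25.6 (SD, n = 3) in the acute group, 92.2 ± 51.0 in the chronic group and 75.6 ± 41.2 under MEK inhibition. A shorter Irgm1 transcript begins at another start, beside the window printed above, where pause-region signal was 688, 461 and 764 in acute, 293, 186 and 368 in chronic, and 448, 393 and 565 in MEK-inhibited libraries. At that start the MEK-inhibited libraries all lay above the chronic ones, a difference that was not tested. AC132320.1, which did not pass the filter there, had 47.3, 44.4 and 114 in acute, 0, 9.43 and 0 in chronic, and 8.15, 8.40 and 3.87 in MEK-inhibited libraries. Against acute libraries 1 of 7 genes was called lower in the pause region, where 2.51% of genes were, namely Gm4951 at -1.28 (adjusted p 0.0204). Leaving out acute replicate 1 or 3 or any single MEK-inhibited library took that count to 0.

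On chromosome 18 the neighbours of the family genes and of the non-coding gene were examined next, in signal that is not separated by strand. Within 100 kb of Gm4951, AC132320.1 and Iigp1 lie 6 further genes, of which 5 were tested, 4 were higher with MEK inhibition and 1 was lower, where 9.93% and 7.65% of all genes were. Of the 4, Gm5970 and F830016B08Rik lie wholly inside one of the 8 genes and share its signal. The largest rise was that of AC151990.1, a processed pseudogene between AC132320.1 and Iigp1, at a scaled signal of 4.55 ± 4.11 (SD, n = 3) in chronic and 86.7 ± 18.1 in MEK-inhibited libraries (log2 fold change 3.36, limma adjusted p 3.01e-04). Against acute libraries, with a mean of 87.1, it was not called (adjusted p 0.998). Gm5970, a processed pseudogene inside Gm4951, rose by 2.71 (adjusted p 0.00776) and cannot be separated from its host. Near-empty chronic libraries make these fold changes depend on the pseudocount.

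F830016B08Rik had 334, 367 and 295 in acute, 10.3, 14.7 and 5.68 in chronic, and 100, 64.4 and 79.0 in MEK-inhibited libraries. Its log2 fold change of 2.53 with MEK inhibition cannot be given as its own, since its signal per kb was close to that of AC132320.1, in which it lies. Gm4841, a family gene between Gm4951 and AC132320.1 that overlaps neither, had 366, 242 and 272 in acute, 10.3, 22.0 and 14.8 in chronic, and 85.9, 85.8 and 114 in MEK-inhibited libraries. The groups did not overlap, and the rise was 2.30 (SE 0.40, limma adjusted p 4.01e-04). Smim3, which codes for a small membrane protein and was named after its values were seen, was the 1 neighbour that went the other way. It had 570 ± 26.2 in acute, 1674 ± 205 in chronic and 1238 ± 103 in MEK-inhibited libraries, and was called lower with MEK inhibition at -0.43 on the log2 scale (SE 0.14, adjusted p 0.0355).

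**Figure D3:**
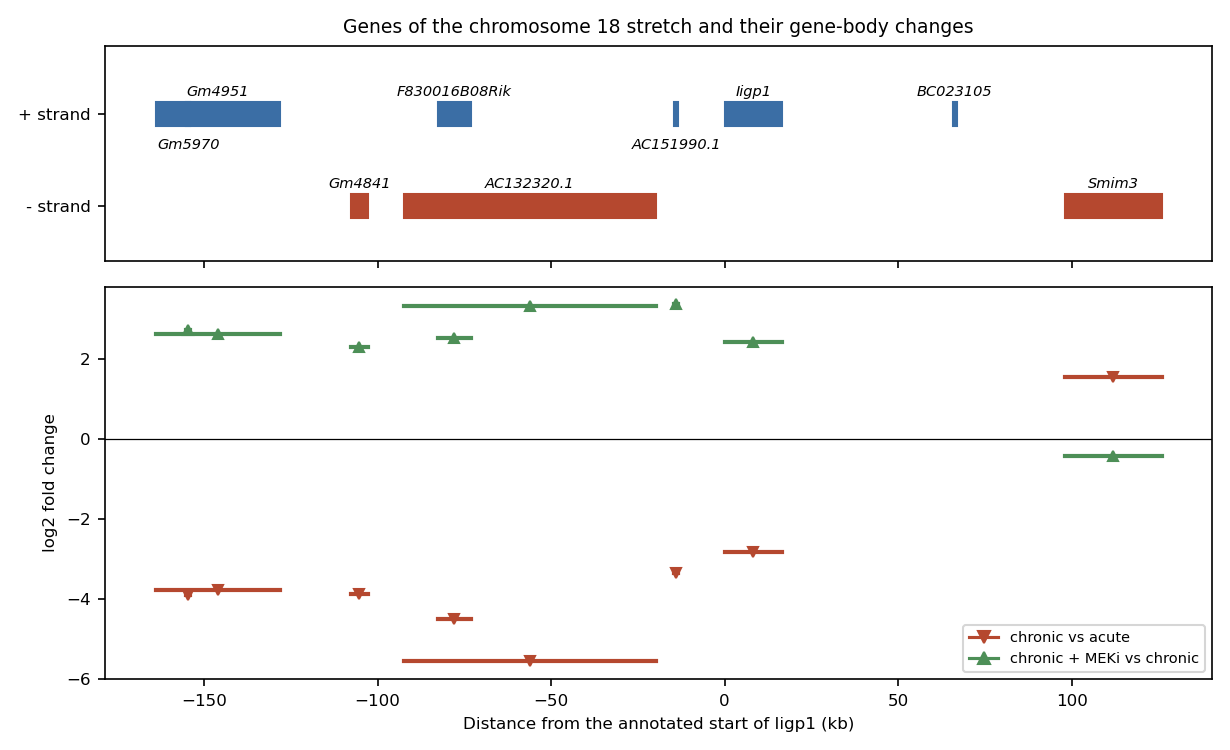
Genes of the chromosome 18 stretch by strand (top) and their log2 fold changes in gene-body signal (bottom), placed by distance in kb from the annotated start of Iigp1, with lines spanning each gene. From Gm4951 to Iigp1 all tested genes were lower in chronic than in acute libraries and rose with MEK inhibition, between 2.30 and 3.36, while Smim3 shows the opposite signs at 1.54 and -0.43. BC023105 was not tested.

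On chromosome 11, neighbours were examined in the same way. Within 100 kb of Igtp and Irgm2, 7 of 8 neighbours were tested and 1 was higher with MEK inhibition, Gm12250 (known as Irgb10, another effector). Gm12250 is annotated here as a processed pseudogene, with a row of 1.27 kb that starts at 58187739, while its promoter window ends at 58183842. Its signal was 1022, 1247 and 1472 in acute, 597, 693 and 514 in chronic, and 1187, 1299 and 1552 in MEK-inhibited libraries. The chronic libraries lay below all others, and Gm12250 rose by 1.16 (SE 0.16, limma adjusted p 5.01e-05). Mrpl22, a mitochondrial ribosomal protein gene, and Gemin5, a gene of the complex that assembles splicing particles, were not called, at -0.49 and -0.22 (adjusted p 0.120 and 0.161). Around Irgm1, Tgtp1 and Tgtp2, 11 of 17 neighbours were tested and 5 were higher, where 9.93% of all genes were. The 5 were Gm12185, 9930111J21Rik1, 9930111J21Rik2, Olfr56 and, named after its values were seen, Ifi47 (Irgd, a further family member). Olfr1396, an olfactory receptor gene, had the largest log2 fold change, 1.19, and was not called (adjusted p 0.191).

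Several of these rows share sequence or signal with the 8 genes. Olfr56, another olfactory receptor gene, spans Tgtp1, Tgtp2 and 9930111J21Rik2 on the opposite strand and Ifi47 on its own strand. Its rise of 0.92 cannot be separated from theirs. Gm12185 likewise spans 9930111J21Rik1 on the same strand, so the 5 neighbours called higher are not separate cases. Tgtp1 made up between 61.5% and 73.5% of the signal of Gm12185 in the group means. A Gm12185 row that ends before Tgtp1 had 569 ± 155 (SD, n = 3) in the acute group, 132 ± 28.3 in the chronic group and 245 ± 5.11 under MEK inhibition, a rise of 0.88 (SE 0.26, limma adjusted p 0.0236). Ifi47 had 6144 ± 166, 2162 ± 189 and 3715 ± 84.9 in the same order, a rise of 0.78 (SE 0.09, adjusted p 5.62e-06).

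A list of 10 further family loci was examined by name, and 8 passed the filter. With MEK inhibition 6 of the 8 were higher, where 9.93% of all genes were, with a median log2 fold change of 0.90 beside 0.04 over all genes. The 6 include Gm12185 and F830016B08Rik, which share signal with Tgtp1 and AC132320.1, and 9930111J21Rik1 and 9930111J21Rik2, which share sequence. The counts over this list are therefore not counts of separate cases. Gm5431 and Irgq were not called, at 0.80 and 0.20 (limma adjusted p 0.541 and 0.712), and Gm12187 and Irgc1 did not pass the filter. The pair 9930111J21Rik1 and 9930111J21Rik2 stayed closer to the chronic than to the acute level. Of the 100-base stretches of the 9930111J21Rik1 transcript, 63% also occur in 9930111J21Rik2. 9930111J21Rik1 had 2679, 2239 and 2473 in acute, 457, 379 and 443 in chronic, and 713, 675 and 594 in MEK-inhibited libraries. Its rise of 0.63 (adjusted p 0.00509) and the rise of 0.62 of 9930111J21Rik2 (adjusted p 0.00648) were lost without MEK-inhibited replicate 1 (both 0.51, adjusted p 0.0542 and 0.0593). Against acute libraries 5 of the 8 loci were lower, where 11.5% of all genes were, and between chronic and acute libraries 7 of 8 were, where 15.9% of all genes were. Those 7 include F830016B08Rik and Gm12185. AC132320.1 was selected on the contrast of chronic with acute libraries, and Tgtp1 was listed with it known. That selection enters the count of 7 through the shared signal, so the count is a description.

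Genes of the interferon pathway were read from a list of 22, of which 21 were tested. With MEK inhibition 14 were higher and 2 lower than in chronic libraries, where 9.93% and 7.65% of all genes were, with a median log2 fold change of 0.67. Ifng, which codes for interferon-gamma itself, moved against its target genes. It had 134, 113 and 170 in acute, 1490, 1883 and 2168 in chronic, and 684, 771 and 896 in MEK-inhibited libraries. The 3 groups did not overlap, and the order of the groups was the reverse of that of Iigp1. Ifng fell by 1.22 on the log2 scale with MEK inhibition (SE 0.20, limma adjusted p 1.96e-04) and was still above acute libraries, at 2.46 (adjusted p 3.46e-08).

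The receptor subunits rose with MEK inhibition. Ifngr2, the signalling subunit of the interferon-gamma receptor, had 2563, 3135 and 2491 in acute, 401, 390 and 399 in chronic, and 2302, 2327 and 1716 in MEK-inhibited libraries. Its chronic libraries were close to each other and far below the rest, and it rose by 2.39 (SE 0.14, limma adjusted p 1.15e-09). Ifngr1, the binding subunit, rose by 0.66 (adjusted p 6.05e-05), and Ifnar2, a subunit of the receptor for type I interferon, by 1.71 (adjusted p 1.88e-07). Jak1 and Jak2, the kinases bound to the interferon-gamma receptor, were not called, at -0.01 and -0.21 (adjusted p 0.970 and 0.229). Against acute libraries Jak1 was lower, at -0.57 (adjusted p 7.70e-05).

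Of the transcription factors, Irf1, an activator of GTPase genes, had 7051, 7426 and 6980 in acute, 3721, 3581 and 5164 in chronic, and 7978, 8132 and 8593 in MEK-inhibited libraries. The chronic libraries lay below the others. Irf1 rose by 1.01 (SE 0.11, limma adjusted p 3.67e-06), and Nlrc5, the activator of MHC class I genes, by 0.74 (adjusted p 5.17e-05). Irf7, a factor of the type I interferon response, was at 1.43 (adjusted p 0.0303) and Irf9, a factor of the same response, at 0.44 (adjusted p 0.0469). The call of Irf9 was lost without any single library other than chronic replicate 3 (0.36 to 0.47, adjusted p 0.0545 to 0.195), and that of Irf7 without chronic replicate 2 or 3 or any MEK-inhibited library (0.86 to 1.57, adjusted p 0.0511 to 0.132). Irf2, a repressor of interferon-induced genes, was lower at -0.41 (adjusted p 0.00643), a call not kept under library totals (-0.30, adjusted p 0.172). Socs1, an inhibitor of JAK kinases, was not called at 0.31 (adjusted p 0.276), but was under library totals (0.42, adjusted p 0.0372). Tyk2 and Ptpn2, named after their values were seen, were the other 2 genes not called. Between chronic and acute libraries 13 of the 21 were lower, where 15.9% of all genes were, and Ifng alone was called higher, at 3.69 on the log2 scale (adjusted p 9.48e-11).

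**Figure D4:**
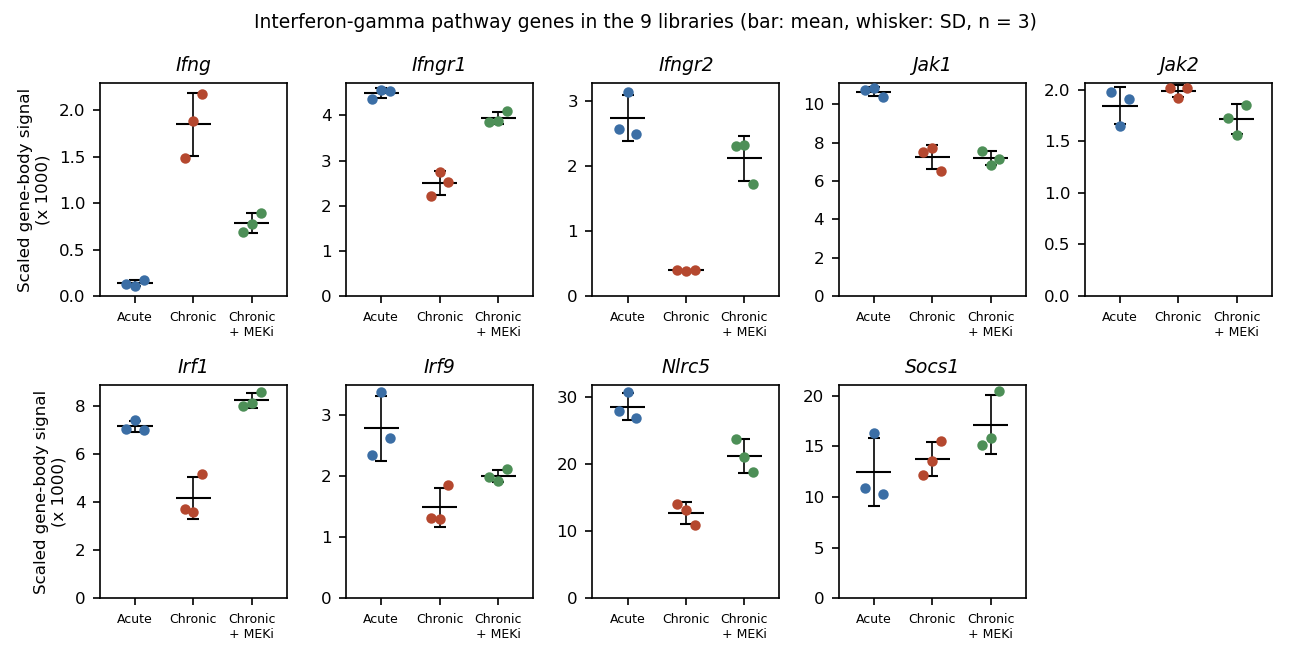
Scaled gene-body signal (linear axis from 0, in units of 1000) of 9 interferon-gamma pathway genes, with 1 point per library, the mean as a bar and the SD as whiskers (n = 3). Ifngr2 and Irf1 show a chronic level below that of both other groups, as the GTPases do, and Ifng runs the other way, with chronic libraries between 1490 and 2168.

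Guanylate-binding proteins, interferon-induced GTPases that act with the immunity-related GTPases on vacuoles, gave a mixed picture. Of 11 listed genes 10 were tested, and 4 were higher with MEK inhibition, where 9.93% of all genes were, with a median log2 fold change of 0.45 over the 10. The 4 were Gbp10, Gbp2, Gbp6 and, named after its values were seen, Gbp5, at 1.70, 1.65, 1.42 and 1.40 (limma adjusted p 4.43e-06, 2.48e-06, 2.53e-08 and 3.94e-04). The other 6 were not called. Against acute libraries 9 of the 10 were lower, where 11.5% of all genes were, and between chronic and acute libraries 9 of 10 were, where 15.9% of all genes were. The row of Gbp8 runs over that of Gbp9 and nearly all of that of Gbp4, and Gbp8 and Gbp9 had identical pause-region values, so these 3 rows count shared signal more than once. The call against acute libraries was lost for Gbp5 without acute replicate 1 or MEK-inhibited replicate 2, and for Gbp7 without acute replicate 1 or MEK-inhibited replicate 3 (adjusted p 0.0535 to 0.0960).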

How the data were processed

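Nascent RNA of 9 libraries was analysed. The authors deposited a signal for each transcript in 2 tables, taken from their names to be gene body and pause region. Per the submitters' processing notes, FastQC 0.12.0, Trim Galore 0.6.10, STAR 2.7.0a, SAMtools 1.19.2, deepTools 0.1.9, R 4.1.2 and build mm10 were used. The regions' coordinates and the use of strand are not given in the sources used here. Low values came in whole steps of a size particular to each library, and in 9 of 9 libraries values of 4 steps were commoner than values of 1 or of 3 steps. A step was therefore not taken to be a read, and no count model was run on the deposited signal.

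The 118482 rows were matched to GENCODE M21 (GRCm38) by transcript identifier, of which 753 did not match and were left out, and chromosomes 1 to 19 were covered. Each gene was represented by the transcript of highest average gene-body signal. The filter asked for a signal of 50 in 3 or more libraries, and scaling used a trimmed mean of log ratios without weights. A limma 3.58.1 model (R 4.3.3, trended and robust) was fitted to log2(signal + 5) of all 9 libraries. P-values were adjusted by Benjamini and Hochberg over all genes, with a threshold of 0.05. Fold changes are on the log2(signal + 5) scale, which understates changes of weak genes. Tables were joined and promoters searched with Python 3.11.15.

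The members, gene lists and tests were chosen with earlier results of these data known. All members were named. From each gene list, up to 3 rises and 3 falls were named besides genes fixed by symbol, and up to 3 neighbours within 100 kb of each cluster were named by size of change. Alternatives were other scalings, pseudocounts, filters, rows and fits, a replicate block, and leaving out each library. The Irgm2 row free of Igtp, the Gm12185 row that ends before Tgtp1, and AC132320.1 less F830016B08Rik were added after seeing the data. A gene of the interferon pathway list is counted in the totals but not reported here.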

Additional observations from a re-analysis of the deposited data

How the results depend on the processing

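Against chronic libraries, the gene-body rises of the 7 members other than AC132320.1 kept direction and call in all alternatives run. These included the row of Irgm2 free of Igtp. The log2 fold change of AC132320.1, given as a description, lay between 3.02 and 3.48. Against acute libraries 4 of the 7 members were lower in the main analysis and 7 under library totals, where Irgm2 and Igtp turned to -0.36 and -0.32. Irgm2 was at -0.32 on the deposited scale. In that comparison Stat3 turned to -0.08 and -0.04 (library totals and deposited scale) and Irf8 to -0.01 (library totals). Between chronic and acute libraries Jak2 turned to -0.38 and -0.36. The members' median there moved from -1.54 to -2.03 under library totals, -2.01 on the deposited scale, and -1.70 using totals without ribosomal RNA-like rows, since these scalings moved the median gene by -0.48, -0.47 and -0.16. In the pause region that median moved from -1.50 to -2.10 under library totals. The count of members lower than in acute libraries there was 1, and was 3 under library totals, 2 with the replicate block and between 0 and 2 when a single library was left out; the cause of the last 2 was not tested.

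Of all genes, 1583 were higher and 1219 lower with MEK inhibition than in chronic libraries in the gene body. Without MEK-inhibited replicate 1, 933 were higher, and 741 and 721 were lower under library totals and the deposited scale. Against acute libraries 2290 were higher and 1827 lower, against 955 and 4965 under library totals, 1023 and 4542 on the deposited scale, and 3151 lower using totals without ribosomal RNA-like rows. Between chronic and acute libraries 2875 were higher and 2529 lower, against 1096 and 6846, and 1134 and 6713, under the first pair of scalings. In the pause region the counts for MEK inhibition against chronic libraries, 120 and 110, became as few as 58 and 40. Against acute libraries 264 higher and 193 lower became 92 and 483 under library totals, and between chronic and acute libraries 412 and 411 became 123 and 1598. Against acute libraries the higher genes were 122 to 144 without any single MEK-inhibited library, and the lower ones 109 to 120 without any of these and 99 without acute replicate 1 or 3. Between chronic and acute libraries 254 were higher without chronic replicate 2 and 244 lower without acute replicate 1.

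Replicates of different groups share only a number. Correlations of deviations between libraries of the same number lay between -0.53 and 0.10 over 9 pairs, and between -0.37 and 0.51 over the other 18 pairs, and 2 of 9 libraries correlated best with their own number. With the replicate block, each of the 8 members other than AC132320.1 was still called higher in the gene body with MEK inhibition. AC132320.1 was chosen for its fall from acute to chronic libraries, so its call is not counted. Of all genes, 1668 were higher and 1288 lower with the block. The depth in reads, which limits weak genes such as AC132320.1 in the pause region, is unknown.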

Other observations

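Immunity-related GTPases act with the conjugation machinery of autophagy, which attaches ATG8 proteins to membranes. Of 15 listed genes of that machinery 13 were tested, and 11 were not called with MEK inhibition against chronic libraries (median log2 fold change -0.04, beside 0.04 over all genes). Gabarapl2, an ATG8 gene, rose from 660 ± 57.9 (SD, n = 3) to 1011 ± 202 (log2 fold change 0.60, SE 0.16, limma adjusted p 0.0120). Gabarapl1, another ATG8 gene, fell from 1206 ± 201 to 629 ± 52.4 (log2 fold change -0.92, SE 0.16, adjusted p 3.74e-04), and its acute level was 678 ± 55.2. Atg5, Atg3 and Atg16l1, which take part in the conjugation and were named after their values were seen, were at -0.04, 0.15 and -0.09.

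The genes whose log2 signal over the 9 libraries was most like that of Igtp, among 8971 genes that varied, were Rcn1, Ctla4 and Irgm1, with Pearson correlations of 0.995, 0.991 and 0.989. Genes whose row overlaps the gene in question were left out of this ranking, among them Irgm2, which shares the signal of Igtp and was at 0.999. For Iigp1 they were Tgfbr1, Itga6 and Gm28177, at 0.999, 0.996 and 0.994. For AC132320.1 they were Noct, Pkhd1l1 and Morc3, at 0.998, 0.995 and 0.993. These are descriptions over 9 libraries that fall into 3 groups, so that any gene with the same order of group levels scores high.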
